A study of Drosophila melanogaster with 3 samples.

Results

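The 8 genes described here, trx, brm, osa, mor, Snr1, ash1, ash2 and kis, encode Trithorax group proteins and subunits of the Brahma chromatin remodeler. They were taken by name, with earlier results of these data known, from the 13968 protein-coding genes of the fly annotation. Each was examined over its annotated span plus 5 kb on either side. Chromatin immunoprecipitation and sequencing (ChIP-seq) had been performed with an anti-GFP antibody on whole larvae at the wandering stage of the third instar, from the fru-MiMIC-GFP strain of Drosophila melanogaster, both sexes pooled. In this line an eGFP exon sits in an intron of fru, a gene for BTB zinc-finger transcription factors, so that the gene at its own locus yields a GFP fusion, and the labels do not say which Fru isoforms carry the tag. The 3 biological replicates form 1 group from 1 line, and every spread below is over these 3. There is no second condition, and the control sample named in the labels was not analysed here. Whole larvae mix all tissues, so the data do not tell in which cells a site was bound. The deposited lists hold no read counts, so depth is unknown, and signal values differ in scale between replicates, with medians of 15.7, 21.4 and 29.2.

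Trithorax group proteins keep developmental genes, among them the Hox genes, in an active state, and they act against silencing by the Polycomb group. Some of them methylate histone H3. Others are ATP-driven remodelers that slide or evict nucleosomes, such as the Brahma complex, the fly counterpart of yeast SWI/SNF. The question the assay addresses at these genes is whether, and where along them, tagged Fru protein was found.

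Tagged Fru was found in the windows of 7 of the 8 genes, with the highest counts of summits inside osa and around trx, while ash2 had no peak in any list. Inside the gene spans alone, 4 genes had a summit (trx, osa, brm and kis), so mor, Snr1 and ash1 count through their flanks. The share of all protein-coding genes with a summit inside the span alone is not given here. The windows held 34 of the 8996 peak summits in the authors' thresholded list, which they cut on reproducibility. Its regions are the 8996 strongest of the list from pooled reads, and not every one recurred in each replicate. Of the whole list, 58.0% had a summit within 100 bp among the strongest 8996 regions of all 3 replicates. Of the 34 summits, 12 were at osa, 8 at trx, 6 at kis, 3 at mor, 2 at brm, 2 at ash1 and 1 at Snr1. Per kb of window this was 0.296 at osa, 0.238 at trx and 0.203 at mor. The osa, trx and kis counts include pairs of summits 200 to 205 bp apart, with each summit counted separately. Of all protein-coding genes, 56.0% had a summit in a window of this kind. The windows cover 204.8 kb and held 0.166 summits per kb, beside 0.0672 per kb over the chromosomes analysed, and 0.107 per kb without osa and trx. Windows around genes hold less sequence far from genes than whole chromosomes do.

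A peak near an own start was found for brm, mor and kis, and at brm and mor it lay between the starts of divergent genes. These 3 of 8 had a thresholded summit within 500 bp of a transcription start site (TSS) of their own (37.5%), against 24.6% of all protein-coding genes. That share rose with gene length, from 19.7% of genes of up to 5 kb (1 of 3 members) to 38.1% of those over 5 and up to 20 kb (1 of 2) and 42.1% of those over 20 and up to 50 kb (1 of 3). The members' count was thus near the shares of genes of like span. The strongest 8996 regions of each replicate gave 4 such genes in replicate 1 (mor, osa, brm, kis), 4 in replicate 2 (mor, trx, brm, kis) and 3 in replicate 3 (mor, brm, kis), a mean of 3.67 ± 0.577 (SD, n = 3). Of all protein-coding genes, 25.2, 27.3 and 24.3% had a region at an own TSS in replicates 1, 2 and 3. The share of all genes with a region in the window was 57.5, 58.7 and 55.9%. The same lists put a region in the window of 7 members in every replicate, each time all but ash2, and 34, 37 and 35 regions in all. Thus mor, brm and kis had a region at a TSS in each replicate, though in replicate 1 the kis region was at its first TSS and not the internal one. The genes osa and trx had one in 1 replicate each. When a summit had to recur within 100 bp among the strongest regions of both other replicates, brm and kis were left without replicate 1, mor and brm without replicate 2, and brm alone without replicate 3. The window summits left by the same rule numbered 24, 24 and 21, at the same 7 genes. The shares of all genes and of the whole list left by this rule are not given here. These counts thus describe the members only.

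Most of the 34 summits lay nearer to the TSS of another gene than to that of the member. This held for 25 of them, and of the 11 summits in the 5 kb flanks 7 lay within 500 bp of a neighbour's TSS and not of the member's. All 23 summits inside the members' spans were in introns of the member, and 4 of these lay within a nested noncoding RNA gene. By the first feature met, 14 of the 34 were promoter summits of any gene (41.2%, 95% Wilson interval 26.4 to 57.8%), beside 40.1% of the whole list. Of these 14, 4 lay within 500 bp of a TSS of more than 1 gene. Summits within 500 bp of a TSS were counted as promoter summits without regard to coding sequence. Away from promoters, none of the 34 was in protein-coding sequence, beside 0.189% of the whole list, a share too small to compare. The intervals cover the sampling of summits only, and neighbouring summits are not independent.

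The strongest summits of the members differed widely in rank, and the order was largely kept between replicates. Ranks are by the authors' signal value, with 1 the strongest, and each replicate list and the pooled list hold 30000 regions. A summit is called present in a replicate where one of its strongest 8996 regions has a summit within 100 bp. The best summits ranked 9 for ash1, 23 for osa, 366 for trx, 682 for kis, 885 for brm, 1407 for mor and 3439 for Snr1 in the pooled data. Those of ash1, mor and Snr1 lay outside the member, nearest to the TSSs of CG14100, Hel89B and RpL35A. That of brm lay between brm and Arl1. In replicates 1, 2 and 3 the ash1 summit ranked 5, 11 and 12, the osa summit 20, 28 and 26, the trx summit 523, 479 and 284, and the kis summit 612, 909 and 604. The brm summit ranked 1436, 1090 and 695, the mor summit 882, 1302 and 1843, and the Snr1 summit 3125, 2384 and 5458. The replicate ranks of neighbours in this order overlapped for kis and brm and for brm and mor, and for no other pair of neighbours.

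**Figure D1:**
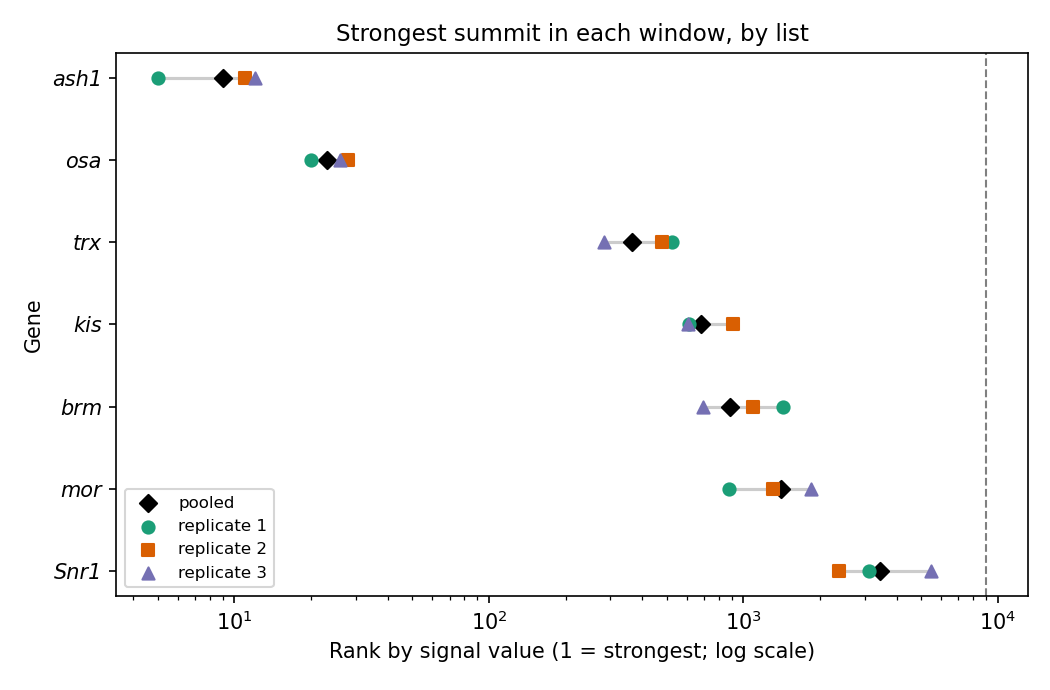
Rank of the strongest summit in each gene's window (x axis, log scale, 1 = strongest) in the pooled list (diamonds) and in replicates 1, 2 and 3 (circles, squares, triangles). Grey lines join the lowest and highest rank, and the dashed line marks rank 8996, the length of the thresholded list. The ash1 and osa summits stayed within ranks 5 to 28 in every list. The ash1, mor and Snr1 summits lie outside these genes, nearest to a neighbour's TSS, and the brm summit lies between brm and Arl1.

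The gene brm, which encodes the ATPase of the Brahma complex, had its strongest summit in the short stretch it shares with Arl1, a gene for a small GTPase of the Golgi, which is transcribed the other way. The summit (3L, position 15983004, signal value 623.5, rank 885) was 135 bp upstream of a TSS of brm (FBgn0000212, 3L 15970082 to 15982869, minus strand) and 131 bp from that of Arl1, so the peak cannot be given to either gene alone. The 265 bases between these genes are shown because they hold the summit and lie within the called region of 323 bp. They are given on the plus strand of dm6, read from the RefSeq sequence of that build, at chr3L:15982870-15983134, with words searched for under the summits in capitals (ATGGC is GCCAT and TGACCT is AGGTCA on the other strand).
brm to Arl1: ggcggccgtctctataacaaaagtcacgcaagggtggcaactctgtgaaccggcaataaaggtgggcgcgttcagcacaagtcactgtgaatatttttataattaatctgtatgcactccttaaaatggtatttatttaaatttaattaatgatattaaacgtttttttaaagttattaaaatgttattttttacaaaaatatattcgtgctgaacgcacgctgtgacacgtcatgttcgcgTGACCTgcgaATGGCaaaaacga
The summit is base 135 of this run. The 101 bases centred on it were 16.8% G+C, the lowest value among the 34 summits, and held none of the words. A further brm summit (position 15977772, signal value 385.0, rank 1853) lay in an intron of 7026 bp, inside the nested gene CG17029 and 739 bp from its TSS. It ranked 2135, 1276 and 2476 in replicates 1, 2 and 3, so both brm summits recurred in all 3 replicates.

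The gene osa, which encodes the ARID-domain subunit that distinguishes the BAP form of the complex, carried a cluster of peaks deep in its body. All 12 summits were inside the span (FBgn0261885, 3R 17687818 to 17718350, minus strand) and none within 500 bp of its TSS. One intron of 8067 bp, the fourth of the longest transcript, held 8 of them, 0.992 per kb. The strongest (position 17704400, signal value 2993, rank 23) lay 13950 bp downstream of the TSS, in an exon of the nested noncoding gene lncRNA:CR46035, which is read from the opposite strand. Next came a summit 112 bp from the TSS of lncRNA:CR46036, another nested noncoding gene (signal value 985.9, rank 360; ranks 783, 1549 and 134 in the replicates). Then came one 238 bp from the TSS of lncRNA:CR46035 (signal value 773.2, rank 603; ranks 367, 793 and 671).

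The other 9 osa summits ranked from 2227 to 8676. One of them, 1019 bp downstream of the TSS in the first intron (signal value 339.7, rank 2227), was found in all replicates, at ranks 2309, 1713 and 2665. In all, 5 of the 12 were present in all 3 replicates. The weakest, 7062 bp into the gene (signal value 108.7, rank 8676), stood just inside the list, whose lowest signal value is 104.5. It had a region within 100 bp in replicate 3 alone. The TSS of osa itself had a pooled region below the threshold, 108 bp upstream (signal value 75.5, rank 12120). The closest regions of the replicates ranked 5657, 17511 and 10772 and lay 103, 120 and 138 bp from the TSS.

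Of all protein-coding genes, 0.580% had at least as many window summits as osa. Close summits were counted separately for every gene, and of the 12 at osa 5 were present in all 3 replicates. Long genes have more room for summits, so the members were also set beside genes of like span. Among the 707 genes of over 20 and up to 50 kb the median was 3 summits, and 3.11% had 12 or more. The same class holds trx with 8, a count reached by 11.7% of it, and kis with 6, reached by 22.2%. Of the 2470 genes of over 5 and up to 20 kb, with ash1 and brm at 2 each, 71.1% had a summit and the median was 1. Among the 10478 genes of up to 5 kb, 50.3% had one, and mor had 3, Snr1 had 1 and ash2 had 0.

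**Figure D2:**
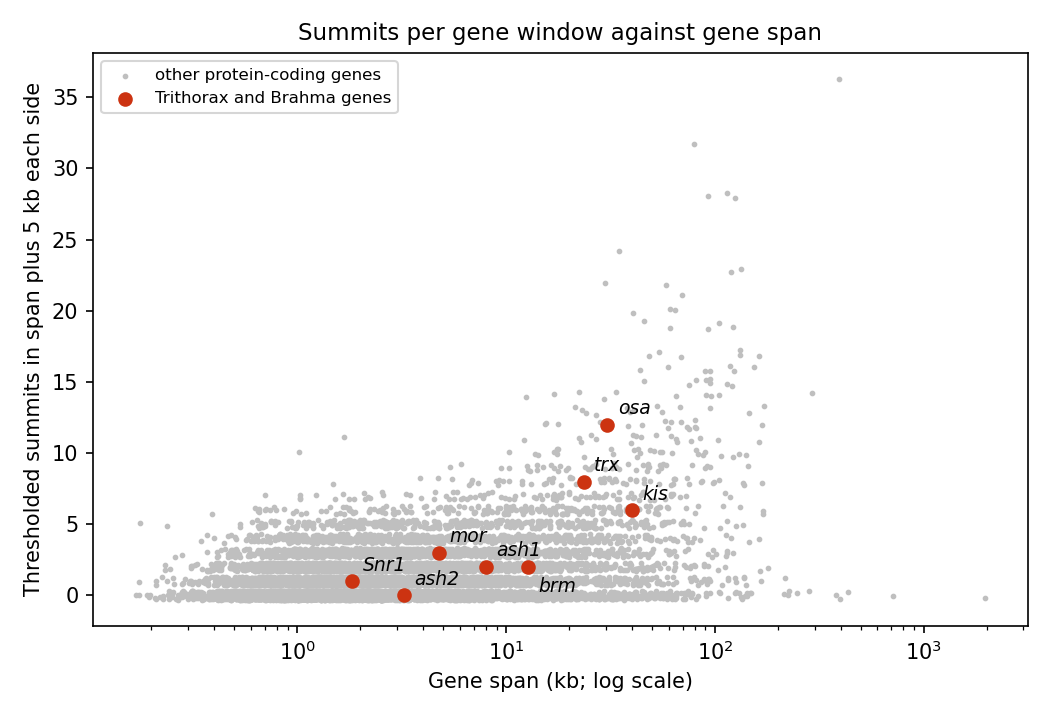
Thresholded summits in the span plus 5 kb each side (y axis) against gene span in kb (x axis, log scale) for every protein-coding gene, with the 8 genes in red and labelled. Grey points are spread slightly up and down so that they can be seen. With 12 and 8 summits, osa and trx lie above the median of 3 for genes of over 20 and up to 50 kb, and ash2 is at 0. Of the trx summits, 4 lie in the upstream flank, at the gene red.

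The osa intron summit is shown next, as the summit ranked just below that of ash1, together with the strongest trx and kis summits, since they lie in introns away from the member's first TSS. Each is the 101 bases centred on the summit, on the plus strand of dm6, at chr3R:17704350-17704450, chr3R:14283850-14283950 and chr2L:224852-224952. Capitals mark a searched word.
osa intron: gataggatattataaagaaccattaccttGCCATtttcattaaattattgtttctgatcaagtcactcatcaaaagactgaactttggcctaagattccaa
trx intron: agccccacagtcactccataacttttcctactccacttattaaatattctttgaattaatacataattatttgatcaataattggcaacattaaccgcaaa
kis intron: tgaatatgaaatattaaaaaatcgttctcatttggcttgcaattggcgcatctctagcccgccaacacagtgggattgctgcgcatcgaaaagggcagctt
The osa and trx windows were 31.7 and 30.7% G+C and the kis window 44.6%. The osa window held the word GCCAT, and none of the searched words is in the trx or kis window.

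The gene trx, which encodes a histone H3 methyltransferase and names the group, had summits within its first introns and upstream, and none at its TSS. Of its 8 summits, 4 were inside the span (FBgn0003862, 3R 14263358 to 14286903, minus strand) and 4 in the upstream flank. The strongest (position 14283900, signal value 980.7, rank 366) lay 3003 bp downstream of the TSS, in the first intron of 6667 bp. A neighbour 715 bp further on had a signal value of 431.7 (rank 1555) and ranked 1174, 1568 and 1799 in replicates 1, 2 and 3. In the second intron, of 1550 bp, a summit 8852 bp from the TSS ranked 804 in the pooled data and 1864, 1681 and 371 in the replicates, and a weaker one 643 bp away ranked 8149. These introns thus held 2 summits each, and their stronger summits recurred in every replicate.

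Upstream of trx the peaks lay at the neighbouring gene red, which is transcribed the other way. Of these 4 summits, 3 were within 500 bp of a TSS of red (9, 9 and 165 bp; ranks 1258, 6490 and 4167) and the other was in an intron of red, 1227 bp from a TSS (rank 1142). The TSS of trx had 3 pooled regions within 500 bp, all below the threshold, at 55, 337 and 323 bp (ranks 10561, 12492 and 19468). The region of the trx window just outside the list lay 6305 bp into the gene (signal value 102.4, rank 9158). In all, 6 of the 8 trx summits were present in all 3 replicates.

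The gene kis encodes Kismet, a remodeler ATPase of the CHD family. Its 6 summits were all inside the span (FBgn0266557, 2L 210735 to 250823, minus strand), in groups of 3 within 2 long introns. The first group lay 1123 to 2807 bp downstream of the first TSS, near the nested lncRNA:CR44218, with ranks 5421, 5915 and 2869. The second group lay in an intron of 7230 bp, upstream of the internal TSS of a shorter transcript. There the strongest summit (position 224902, signal value 718.5, rank 682) was 2940 bp upstream of that TSS, the next 13 bp from the TSS of the nested lncRNA:CR44222 (signal value 521.6, rank 1175; ranks 823, 995 and 1779), and the last 114 bp upstream of the internal kis TSS (signal value 185.2, rank 4950). This last summit ranked 9115, 3459 and 6403 in the replicates, so in replicate 1 it fell just outside the strongest 8996. In all, 3 of the 6 were present in all 3 replicates.

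**Figure D3:**
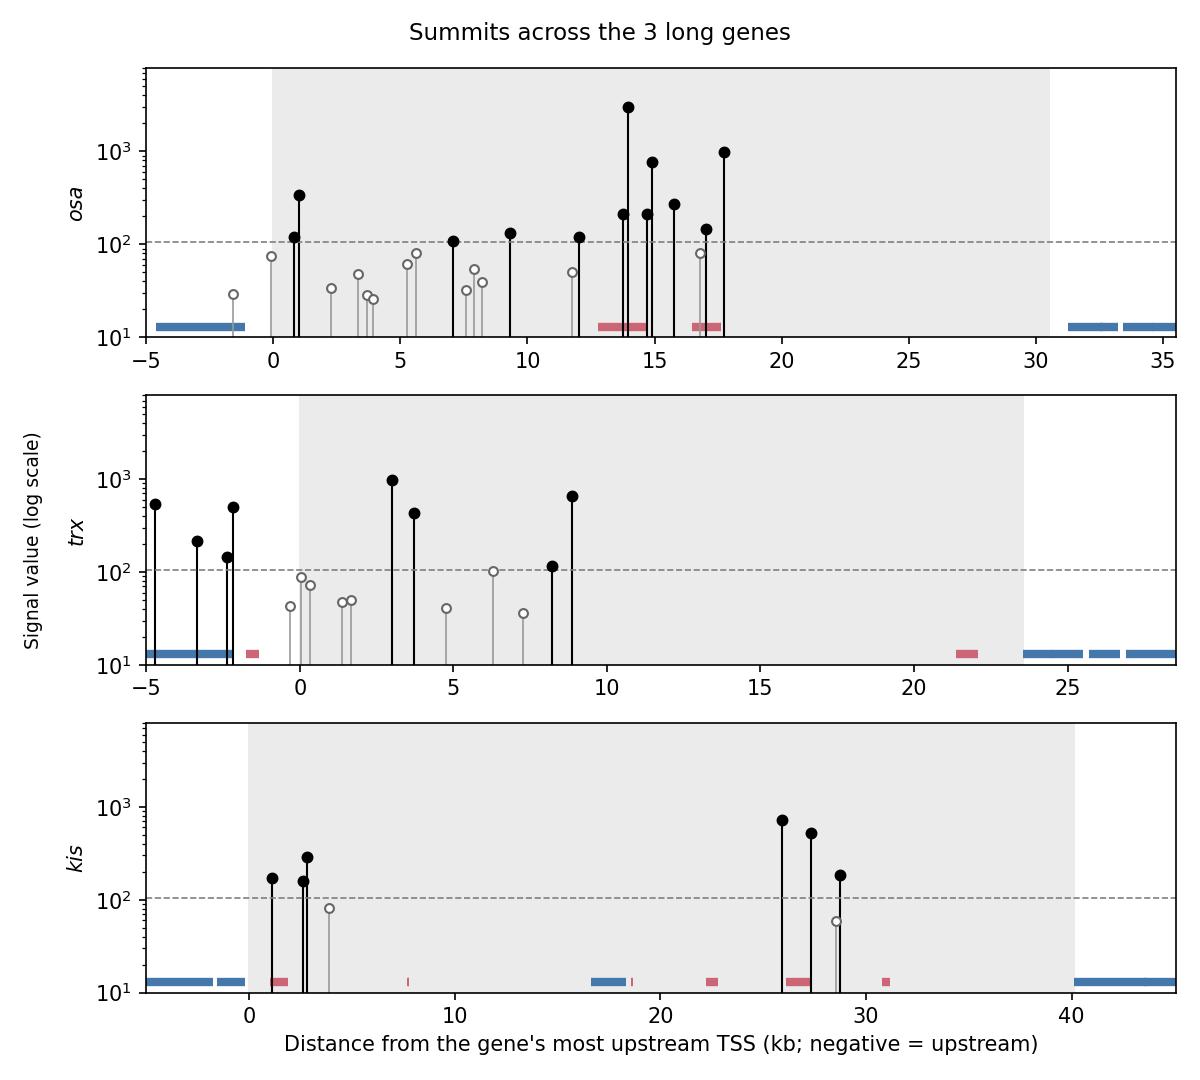
Signal value (y axis, log scale) of summits along osa, trx and kis against distance in kb from the most upstream TSS. Filled points are thresholded summits, open points pooled regions below the threshold, grey shading the gene span, blue bars other protein-coding genes, red bars noncoding genes, and the dashed line the lowest thresholded signal value, 104.5. The osa summits crowd near lncRNA:CR46035, about 13950 bp into the gene.

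The gene mor encodes Moira, a scaffold subunit of the Brahma complex. It had no summit inside its span (FBgn0002783, 3R 15968134 to 15972913, minus strand) and 3 in the flanks. One was at its own TSS, 109 bp upstream (position 15973022, signal value 188.2, rank 4865), in the stretch between mor and the helicase gene Hel89B, which starts 276 bp away on the other strand, so this peak cannot be given to mor alone either. It ranked 2950 in replicate 1 and 5487 in replicate 3. Replicate 2 had no region within 100 bp, and its closest region to the mor TSS ranked 6497 and lay 210 bp from it and 175 bp from that of Hel89B. The stronger summits belonged to other genes by position. The summit of rank 1407 (signal value 465.9) was in an intron of Hel89B, 1515 bp upstream of mor. The summit of rank 1800 was 1 bp from the TSS of CG32856 and 94 bp from that of Rbf2, a retinoblastoma family gene read the other way (ranks 1438, 1836 and 2376 in the replicates).

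The summits at the start of mor and at the internal start of kis are shown because they are, with that of brm, the summits near a TSS of a member. Each is 101 bases on the plus strand of dm6, at chr3R:15972972-15973072 and chr2L:222026-222126, with searched words in capitals (ATGGC is GCCAT on the other strand).
mor start: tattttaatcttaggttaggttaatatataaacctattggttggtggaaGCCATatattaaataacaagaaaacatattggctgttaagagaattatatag
kis internal start: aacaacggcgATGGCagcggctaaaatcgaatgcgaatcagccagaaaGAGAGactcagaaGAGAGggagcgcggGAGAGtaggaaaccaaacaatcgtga
The mor window was 25.7% G+C and the kis window 51.5%, with 3 copies of GAGAG, the core of the site bound by the GAGA factor.

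The gene Snr1 encodes a core subunit of the Brahma complex, the counterpart of yeast Snf5. Its only summit (position 5467138, signal value 249.7, rank 3439) lay 3788 bp upstream of its TSS (FBgn0011715, 3R 5470926 to 5472754, plus strand). It was 37 bp from the TSS of RpL35A, a ribosomal protein gene. No thresholded or pooled region lay at Snr1 itself. Replicate 1 alone had a region at the Snr1 TSS, 25 bp away, which ranked 9386.

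The gene ash1 encodes a histone H3 methyltransferase of the Trithorax group. Both of its summits lay beyond the 3 prime end of the gene (FBgn0005386, 3L 19590773 to 19598755, minus strand), and none was in its span or at its TSS. The stronger (position 19590622, signal value 4281, rank 9) was the strongest of the 34, 151 bp past the end of ash1 and 8133 bp from its TSS, but 98 bp from the TSS of CG14100. The other was 110 bp from the TSS of CG9330 and 140 bp from that of the divergent CG9231 (signal value 327.8, rank 2353; ranks 3163, 1800 and 2645 in the replicates). By position, then, both ash1 summits were promoter summits of neighbours. The 248 bases between CG14100 and ash1, which hold the strongest summit as base 98, read on the plus strand of dm6 at chr3L:19590525-19590772, with the searched word CGATA in capitals:
CG14100 to ash1: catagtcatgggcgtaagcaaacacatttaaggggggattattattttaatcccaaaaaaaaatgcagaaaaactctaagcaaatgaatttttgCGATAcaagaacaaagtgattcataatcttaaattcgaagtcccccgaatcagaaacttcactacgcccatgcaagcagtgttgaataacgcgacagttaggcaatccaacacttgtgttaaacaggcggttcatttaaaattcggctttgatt

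The gene ash2 encodes a subunit common to the COMPASS family of histone methyltransferase complexes. No thresholded, pooled or replicate region fell in its window (FBgn0000139, 3R 24650125 to 24653376, plus strand). The nearest thresholded summit was 23604 bp from a TSS of ash2, near atl, and ranked 8740. The pooled region closest to a TSS of ash2 was 19341 bp away and ranked 28316. Each list ends at 30000 regions and gives no read counts, so weaker binding at ash2 was not detectable here.

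**Figure D4:**
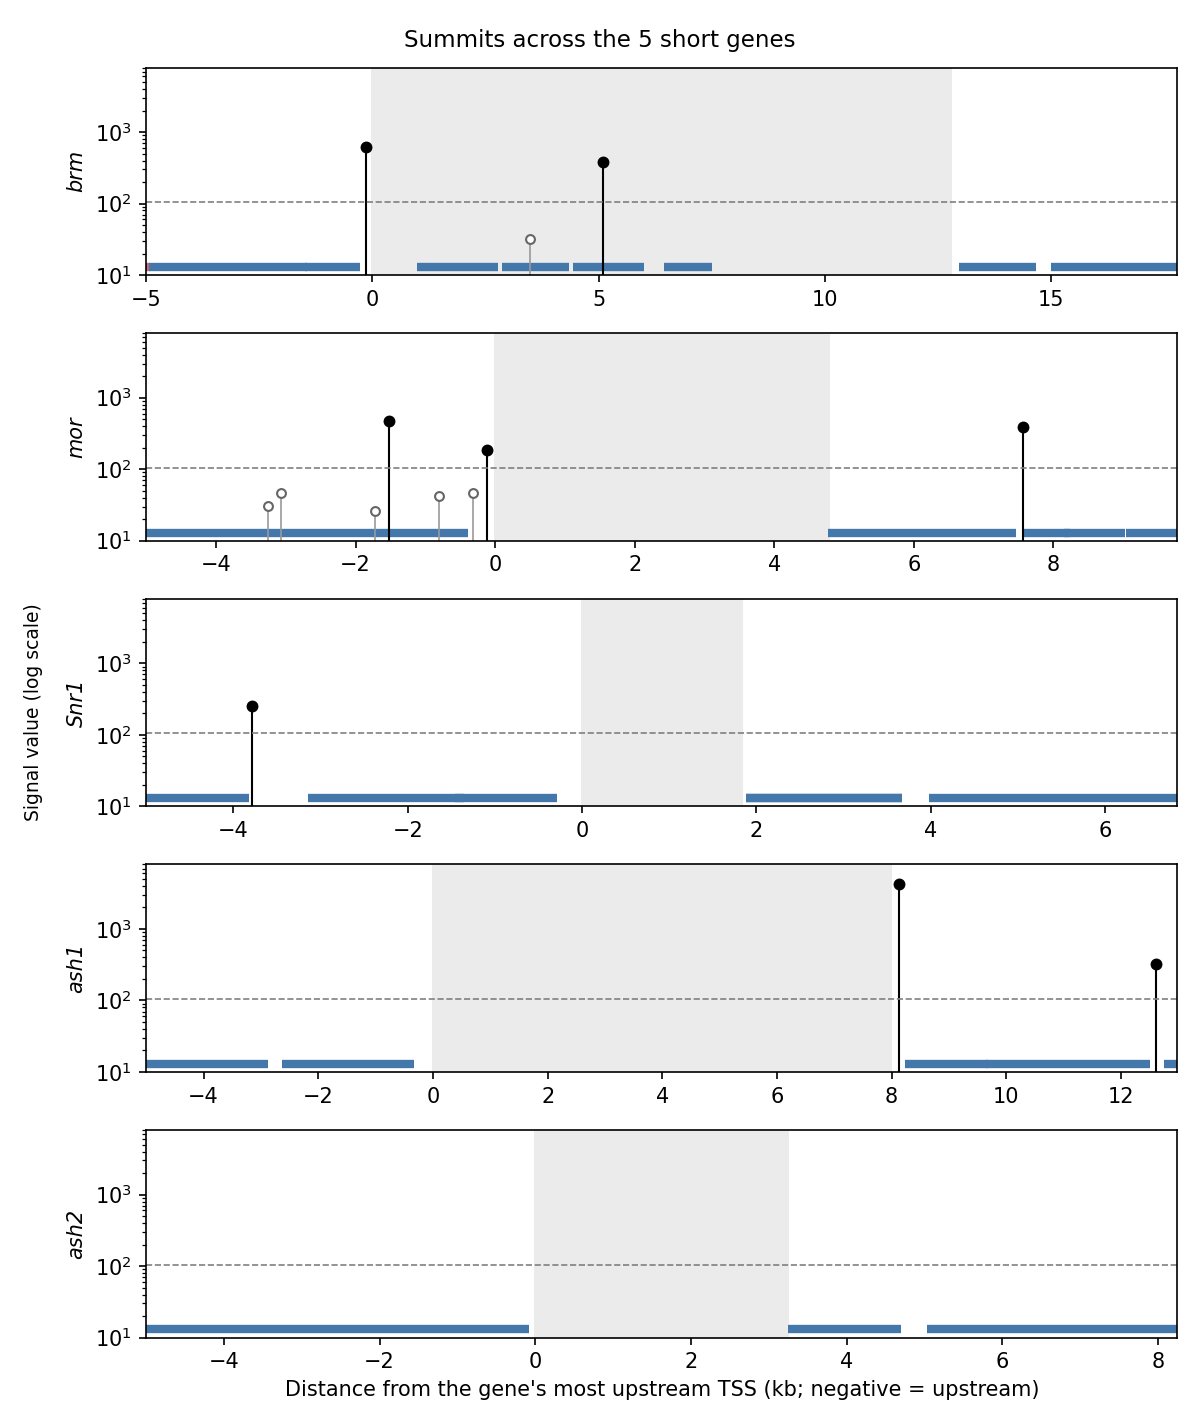
Signal value (y axis, log scale) of summits along brm, mor, Snr1, ash1 and ash2 against distance in kb from the most upstream TSS, drawn as for the long genes (filled, thresholded; open, pooled below the threshold; grey, gene span; blue, other protein-coding genes; red, noncoding genes; dashed line, 104.5). Of the 8 thresholded summits, 1 lies inside a span, that of brm, and the ash2 window is empty.

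Of the 34 summits, 21 recurred in all 3 replicates, within their 8996 best ranks (61.8%, 95% Wilson interval 45.0 to 76.1%), against 58.0% of the whole list. Replicates 1, 2 and 3 held 26, 25 and 31 of the 34 (76.5, 73.5 and 91.2%), beside 78.3, 77.9 and 83.4% of the whole list. Across the 26 summits found in all 3 whole lists, Spearman's rho of the ranks was 0.804 for replicates 1 and 2, 0.869 for 1 and 3 and 0.856 for 2 and 3, beside 0.778, 0.759 and 0.736 over 7538 summits of the whole list. These describe summits of the same libraries, several of them neighbours at 1 gene.

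Some summits stood very close together. Of the 34, 18 had another thresholded summit within 1000 bp (52.9%, beside 35.7% of the whole list). At 5 places, 3 in osa and 1 each in kis and beside trx, a pair of summits lay 200 to 205 bp apart. Counting summits closer than 250 bp once, a choice made after seeing the data, left 29, of which 21 were present in all 3 replicates.

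Strong summits in these windows were richer in A and T. The 16 that ranked 2249 or better had a median G+C of 31.2% over 101 bp, and the other 18 of 43.6%. The whole list gave 30.7 and 35.6%, and windows 500 bp to either side of all summits gave 43.6%. The groups overlapped, with ranges of 16.8 to 56.4% and 20.8 to 59.4%. The weaker group includes summits 200 to 205 bp from a stronger one, and summits of 1 gene are not independent.

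**Figure D5:**
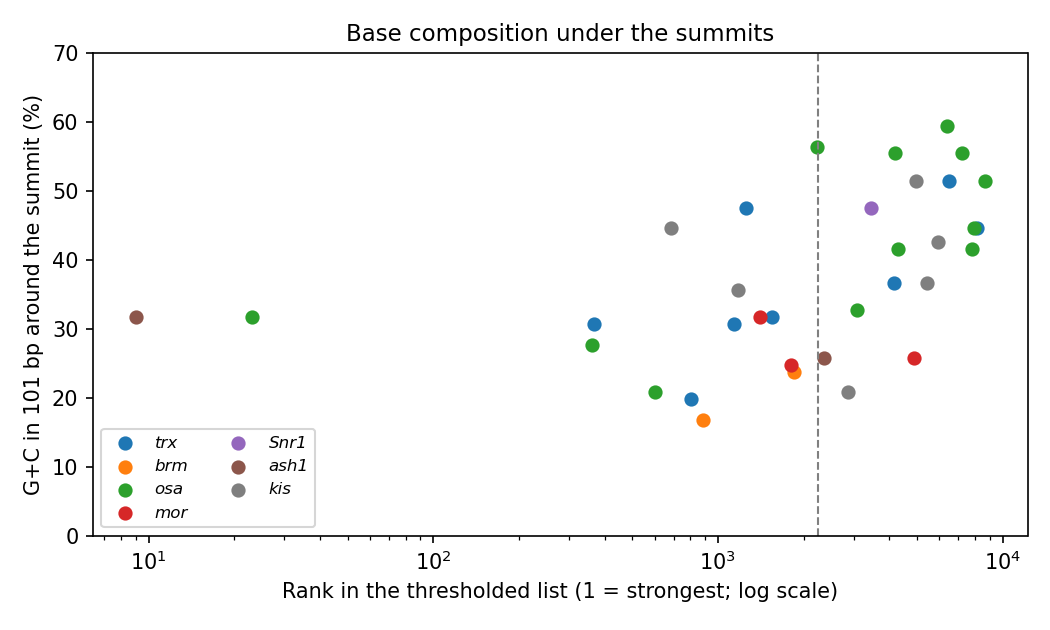
G+C in the 101 bp around each of the 34 summits (y axis, percent) against rank in the thresholded list (x axis, log scale), coloured by gene. The dashed line marks rank 2249, and the lowest value, 16.8%, is the brm summit shared with Arl1.

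Short words known from sites of chromatin factors were under some of the summits. All were searched on both strands of the same windows. GAGAG, for the GAGA factor, was under 5 of 34 summits (14.7%, beside 12.6% of all summits and 13.7% of flanks of all summits), namely 3 of osa and 2 of kis. GCCAT, the core of the Pho site, was under 8 (23.5%, 95% Wilson interval 12.4 to 40.0%, beside 13.9 and 17.7%). CGATA, which lies within the DREF site TATCGATA, was under 5 (14.7%, beside 1262 of the 8996 summits and 11.1% of flanks). TATCGATA itself was under none of the 34 (95% interval up to 10.2%), beside 1.21% of all summits and 0.167% of flanks. The E-box CACGTG was under none, beside 0.789 and 1.19%, and AGGTCA, part of many nuclear receptor sites, under 1 (2.94%, beside 1.85 and 2.48%). In the flanks of the 34 summits themselves, the shares were 22.1% for GCCAT and 19.1% for both GAGAG and CGATA, so none of these 3 words stood out at the summits against their own surroundings. A match is only a match of letters in the window.

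Partners of these genes in the same complexes, and related gene lists, showed a mixed picture. Of all protein-coding genes, 56.0% had a window summit and 24.6% one at a TSS. Of 8 further Brahma complex genes, 7 had a window summit and 4 a summit at a TSS of their own (87.5 and 50%), led by tth (rank 927) and Bap60 (rank 1539), while polybromo had none. Of 13 COMPASS family genes outside the members, 7 had a window summit and 3 one at a TSS, led by Rbbp5 (rank 2591) and Dpy-30L1 (rank 6180), and the methyltransferase gene Set1 had none. These shares, 53.8 and 23.1%, were near those of all genes of any length. The median span of the COMPASS list is 6487 bp. Among genes of over 5 and up to 20 kb the shares were higher, 71.1 and 38.1%. Of 13 other remodeler genes, with a median span of 5819 bp, 7 had a window summit and 2 one at a TSS (53.8 and 15.4%). They were led at a TSS by Ino80 (rank 608) and tou (rank 3946). Other Trithorax group and acetylation genes had 10 and 7 of 13 (76.9 and 53.8%), led by the bromodomain gene fs(1)h (rank 674) and the GAGA factor gene Trl (rank 893). Polycomb group genes had 13 and 8 of 16 (81.25 and 50%), led by ph-p (rank 24) and E(z) (rank 1072). Medians were 2.5 window summits for the members and for the other Brahma genes, 1 for the COMPASS and remodeler lists, 3 for the other Trithorax list, 2 for the Polycomb list and 1 over all protein-coding genes, whose median span, 2164.5 bp, is shorter than that of each list.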

How the data were processed

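The authors deposited, per the sample notes, region lists made from ChIP alignments with a control alignment. There is 1 list per replicate and 1 from pooled reads, and a list thresholded on the irreproducible discovery rate was derived from these. The signal value is a score made by the authors. It was used to rank regions within a list, never to compare levels between lists. The other column used, the distance from region start to summit, is as deposited. The sources used here do not give the aligner, caller or cutoff, and depth is unknown. All 8996 thresholded regions are the strongest of the pooled list. The dm6 lists were used, and positions are 1-based. Chromatin fragments were 200 to 800 bp per the labels.

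Genes and TSSs came from Ensembl BDGP6.54, release 115, without pseudogenes. Spans of all 8 genes equal those of RefSeq on the same assembly. A summit was present in a replicate if a region among its 8996 strongest had a summit within 100 bp. Python 3.11.15, pandas 2.3.3 and scipy 1.17.1 were used. Counting was tested on simulated summits.

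With 1 group, and with members, lists and words chosen with earlier results of these data known, no test was run. The genes named are the members, genes nested in them or nearest to their summits, and from each other list the 2 with the highest ranked TSS summit. The genes polybromo and Set1 were added after their values were seen. One listed name, calypso, matched no symbol and was left out. Alternatives were other windows, TSS distances, list lengths, summit distances and replicate support.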

Additional observations from a re-analysis of the deposited data

How the results depend on the processing

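Without the 5 kb flanks 4 of the 8 genes kept a summit (trx, osa, brm and kis). The other windows, list lengths and replicate rules tried gave 6 or 7 genes. The strongest 4498 of the list left brm as the 1 gene with a summit at its own TSS, and so did presence in all 3 replicates, which left 21 window summits. The whole pooled list gave 63 window regions and 5 genes at a TSS (with trx and osa added). Wider windows and longer lists raise such counts for any gene. The shares of all protein-coding genes at these changed settings are not given here, so the counts describe the members only. Leaving out 1 replicate at a time, which keeps summits present in both others, gave 21 to 24 window summits and 1 to 2 genes at a TSS, the lowest values without replicate 3. Pooled reads were unchanged by this. The number of summits in all 3 replicates ran from 16 (summits within 50 bp) to 28 (within 250 bp). The replicate and pooled lists end at 30000 regions and hold no read counts, so regions weaker than these cannot be seen.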

Other observations

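The first TSS of kis had no pooled region within 500 bp, although 2 replicates listed one there among their strongest 8996 regions. Replicate 1 had a region 72 bp away (rank 4285), and replicate 2 one 143 bp away (rank 7552). In the 8 windows together, 6 regions of this kind, strong in a replicate and more than 250 bp from any pooled region, were found, 3 in replicate 1, 2 in replicate 2 and 1 in replicate 3.

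The close pairs of summits in osa, kis and beside trx have the spacing that is most usual among close summits in the whole list. There, 1713 summits (19.0%) had another closer than 250 bp, and 1141 summits (12.7%) had their nearest neighbour 200 to 210 bp away, against 191 (2.12%) in the next band of equal width. Counting summits closer than 250 bp once left 8140 of the 8996.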
